A study of Mus musculus with 2 samples.

Results

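The genes described here are the retinoblastoma pathway members that decide whether a cell leaves G1: the pocket protein genes Rb1, Rbl1 and Rbl2, the D cyclin genes Ccnd1 and Ccnd2, their kinase genes Cdk4 and Cdk6, and the inhibitor genes Cdkn1b, Cdkn2a and Cdkn2b. They were chosen by symbol, 10 of the 54532 genes in the deposited table, and each symbol matched 1 entry. RNA was sequenced from CT26, a mouse line derived from a colon carcinoma. The Oct4/SOX2 cells had received lentivirus that drives mouse Oct4 together with human SOX2, and the vector cells (the control, otherwise wild type) lentivirus with no insert. Both were kept for 4 days in serum-containing medium, so exposure to lentivirus is common to both; the promoter that drives the factors and the share of cells transduced were not known here. Each group is 1 library, so every difference below is a difference between these libraries with no replicate check, and the intervals given cover counting error only.

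Pocket proteins bind E2F transcription factors and hold back the genes for DNA replication. D cyclins activate CDK4 and CDK6, which phosphorylate the pocket proteins and release E2F. The INK4 inhibitors, among them the products of Cdkn2a and Cdkn2b, bind CDK4 and CDK6 directly, whereas the CIP/KIP inhibitors, among them p27 from Cdkn1b, bind assembled cyclin and kinase pairs. In colon carcinomas this switch lies downstream of growth factor and Wnt signalling, both of which raise cyclin D1.

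The libraries held 32262408 (vector cells) and 31521115 (Oct4/SOX2 cells) gene-assigned reads. The introduced factor was visible as Pou5f1, the mouse gene for Oct4, at 0 reads in vector cells and 173 FPKM in Oct4/SOX2 cells (FPKM are fragments per kilobase of gene length at a common depth). Mouse Sox2 stood at 14.1 and 23.3 FPKM, and reads from the human vector copy that align to it cannot be separated. The label of a colon line was checked against epithelial markers: 3 of 12, Krt18, Krt20 and Lgals4, reached 1 FPKM, while Epcam had 1 and 2 reads and Cdh1 had 0 in both libraries. Of 12 mesenchymal markers 10 reached 1 FPKM, with a summed level of 1190 FPKM in vector cells and 1785 FPKM in Oct4/SOX2 cells. The largest gains in this sum were those of Vim, at 599 and 966 FPKM, and Col1a2, at 185 and 306 FPKM. The rise was not general. Of the 10 markers 6 were higher in Oct4/SOX2 cells and 4 lower, among the latter Col1a1, which was 1.55-fold lower. Leukocyte markers summed to 26.4 and 20.8 FPKM, nearly all of it Cd14 and Cd68. No endothelial or muscle marker of 10 reached 1 FPKM. Among the mesenchymal markers Twist1 was 2.43-fold higher in Oct4/SOX2 cells and Pdgfrb lower, at 14.1 and 4.93 FPKM, so the marker levels themselves differed between the libraries, and their part in the ratios below was not tested.

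The member with the highest ratio was Rb1. It was at 5.53 FPKM in vector cells and 15.4 FPKM in Oct4/SOX2 cells. Its relatives Rbl1 and Rbl2 had ratios of 1.26 and 1.14, and Cdkn2a and Cdkn2b had no reads in either library. Within the cyclin and kinase pairs the ratios lay on opposite sides of 1. Ccnd1 was 1.28 times and Cdk6 1.77 times as high in Oct4/SOX2 cells, whereas Ccnd2 was 1.63-fold and Cdk4 only 1.10-fold lower. Of the 10 members 8 reached 1 FPKM in a library, and by a rule of at least 2-fold on the log2 scale of FPKM + 1, 1 was higher (Rb1) and 0 were lower. The background over all 12401 genes at 1 FPKM or more was 2.42% higher and 1.85% lower, and over 10276 protein-coding genes 1.39% and 1.07%, so 1 of 8 is a description of Rb1, not of the group. The median log2 ratio of the 8 was 0.22, beside -0.01 for all measured genes, with members ranging from -0.69 to 1.33. In bulk RNA, a difference in the share of cells that express a gene and one in RNA per cell cannot be told apart.

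Per length, the order of the members by level was Ccnd1, Cdk4, Ccnd2, Cdk6, Rbl1, Cdkn1b, Rb1 and Rbl2 in vector cells. In Oct4/SOX2 cells the first 4 places were the same, and Rb1 had moved up beside Rbl1, ahead of Cdkn1b. Rb1 and Rbl1 were then indistinguishable by counting error, with 2952 and 2923 reads over gene lengths of 6015 and 5993 bases.

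**Figure D1:**
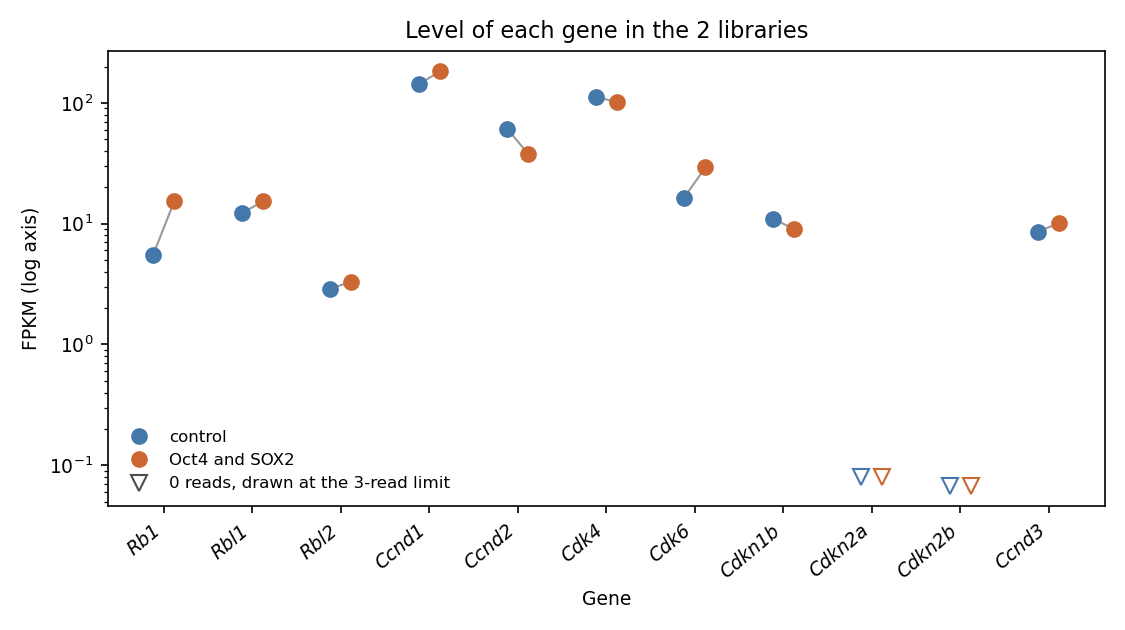
FPKM (log axis) of each of the 10 genes, with Ccnd3 added for comparison, in the control library (blue) and the Oct4 and SOX2 library (orange); each point is 1 library, and open triangles mark genes with 0 reads, drawn at the level 3 reads would give. Rb1 moves from 5.53 to 15.4 FPKM, to the same level as Rbl1 at 15.3 FPKM, and Cdkn2a and Cdkn2b lie at the limit of detection.

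Rb1 (ENSMUSG00000022105) encodes the retinoblastoma protein, which represses E2F target genes in its unphosphorylated form. It lies on the minus strand of chromosome 14 from 73183673 to 73325822 in GRCm38, and its principal transcript has 27 exons with 2763 coding bases. Rb1 had 1061 reads in vector cells and 2952 in Oct4/SOX2 cells, a plain FPKM ratio of 2.79 (95% counting interval 2.60 to 2.99). Among the 10276 protein-coding genes at 1 FPKM or more, 76 had a higher log2 ratio than Rb1's 1.33, which is 0.740% of them. By FPKM, Rb1 moved from place 7510 among all genes in vector cells to place 3752 in Oct4/SOX2 cells.

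Genes on the opposite strand share exonic bases with Rb1, and whether reads kept their strand is not given in the sources used here. Lpar6, a lysophosphatidic acid receptor gene that lies inside Rb1, shares 408 exonic bases and had 340 reads in vector cells and 583 in Oct4/SOX2 cells. Rcbtb2, which runs into the 3' end of the Rb1 gene, shares 488 exonic bases and had 984 and 706 reads. Rb1 had 1891 more reads in Oct4/SOX2 cells than in vector cells. How reads in the shared bases were assigned is not given, so this gain cannot show the part of the overlap. With the Lpar6 reads added to Rb1 the ratio was 2.53 (2.38 to 2.69), and with those of Rcbtb2 as well it was 1.78 (1.69 to 1.87), which is under 2-fold. On that sum no member would pass the 2-fold rule. Both sums take in every read of a neighbour, also those outside the shared bases. They therefore cannot show how far the overlap alters the ratio of Rb1.

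The genes around Rb1 did not share its ratio. Itm2b, on the side of the Rb1 promoter, stood at 144 FPKM in vector cells and 130 FPKM in Oct4/SOX2 cells. Med4, a Mediator subunit gene, stood at 8.46 and 8.14 FPKM, and Sucla2, a succinyl-CoA ligase subunit gene, at 13.3 and 12.8 FPKM. On the other side Fndc3a was at 14.1 and 14.0 FPKM, whereas Rcbtb2 was 1.39-fold lower (1.26 to 1.53) and Lpar6 1.72-fold higher (1.50 to 1.97). Cysltr2 had 4 and 0 reads. Setdb2, which begins at 59402009 and so lies far from Rb1 on the chromosome, was at 5.98 and 4.63 FPKM. Of the 7 measured genes of this list, Setdb2 included, 1 lay above 0, beside 48.3% of all measured genes. It was Lpar6, the gene within Rb1. The median log2 ratio of the 7 was -0.05. The protein-coding genes nearest to Rb1 in level in both libraries, by distance in log2(FPKM + 1) over 2 libraries, were Marcks (5.25 and 14.7 FPKM), Klra2 (4.79 and 15.2 FPKM) and Irs1 (5.39 and 13.2 FPKM).

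Rbl1 and Rbl2 encode p107 and p130, the other pocket proteins. Rbl1 (ENSMUSG00000027641; chromosome 2, 157145893 to 157204534, minus strand, 22 exons) was at 12.2 FPKM in vector cells and 15.3 FPKM in Oct4/SOX2 cells, from 2332 and 2923 reads, a ratio of 1.26 (1.19 to 1.33). Of the measured protein-coding genes 30.5% had a log2 ratio farther from 0 than that of Rbl1. Rbl2 (ENSMUSG00000031666; chromosome 8, 91070057 to 91123844, plus strand, 22 exons) was the lowest pocket protein gene at 2.90 and 3.30 FPKM, from 699 and 795 reads, a ratio of 1.14 (1.03 to 1.26). For Rbl2 that share was 61.4%, so its ratio lay well within the bulk of genes. Aktip, on the opposite strand, shares 693 exonic bases with Rbl2 and had 1021 and 878 reads.

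The make-up of the pocket protein family differed between the libraries. In vector cells, Rbl1 held 59.1% of the summed FPKM of the 3 genes, Rb1 26.8% and Rbl2 14.1%. In Oct4/SOX2 cells, Rb1 held 45.3%, Rbl1 45.0% and Rbl2 9.71%. Counted in reads, the share of Rb1 was 25.9% (exact binomial 95% interval 24.6 to 27.3) and 44.3% (43.1 to 45.5). The level of Rbl1 was 2.21 times that of Rb1 in vector cells and 0.994 times in Oct4/SOX2 cells, and the family total was 20.6 and 34.0 FPKM.

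Rbl1 is itself known as an E2F target, and its promoter is shown because the E2F target genes as a list lay higher in Oct4/SOX2 cells. The sequence is the 250 bases before the RefSeq start on GRCm38.p6, chr2:157204535-157204784, minus strand, 5′ to 3′, from the RefSeq promoter table, which matched 7 of the 10 members (not Rb1, Ccnd1 or Ccnd2). Capitals mark the E2F motif, searched as TTTCGCGC, TTTCCCGC, TTTGGCGC or TTTGCCGC on both strands.
Rbl1: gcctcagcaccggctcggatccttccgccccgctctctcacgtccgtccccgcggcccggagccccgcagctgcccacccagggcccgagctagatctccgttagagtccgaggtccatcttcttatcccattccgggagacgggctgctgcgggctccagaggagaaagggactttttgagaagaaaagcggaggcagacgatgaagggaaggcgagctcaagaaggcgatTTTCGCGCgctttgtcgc
The motif begins 18 bases before the start. Of 32851 promoter windows of this length 1.86% hold it, and the Rbl2 window holds none. Among the members it was otherwise found only in the window before the upstream start of Cdkn2a, 99 bases before that start. A match is a description of the letters, not of binding.

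Cyclin D1 was the most abundant member. Ccnd1 (ENSMUSG00000070348; chromosome 7, 144929931 to 144939925, minus strand, 5 exons) was at 142 FPKM in vector cells and 182 FPKM in Oct4/SOX2 cells, from 21412 and 27316 reads, a ratio of 1.28 (1.26 to 1.30). Ccnd2, for cyclin D2 (ENSMUSG00000000184; chromosome 6, 127125162 to 127152193, minus strand, 5 exons), was at 61.2 and 37.6 FPKM, from 18377 and 11268 reads, and was thus 1.63-fold lower (1.59 to 1.67). These ratios lie on opposite sides of 1 with intervals far apart. Ccnd2 was the member with the lowest ratio, and 3.18% of the measured protein-coding genes lay below its log2 ratio of -0.69. For Ccnd1, 24.4% of these genes had a log2 ratio farther from 0. Ccnd3, for cyclin D3, which is not a member, stood at 8.61 and 10.1 FPKM, a ratio of 1.18 (1.12 to 1.24).

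The D cyclin total was 212 FPKM in vector cells and 230 FPKM in Oct4/SOX2 cells, 1.08 times as high. Its make-up differed between the libraries. Ccnd1 held 67.1% of it in vector cells and 79.2% in Oct4/SOX2 cells, Ccnd2 28.8% and 16.4%, and Ccnd3 4.06% and 4.41%. The level of Ccnd1 was 2.33 times that of Ccnd2 in vector cells and 4.84 times in Oct4/SOX2 cells. Oraov1 shares 1100 exonic bases with Ccnd1 on the opposite strand and had 587 and 659 reads, few beside those of Ccnd1. The antisense genes at Ccnd2 had 51 reads or fewer.

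**Figure D2:**
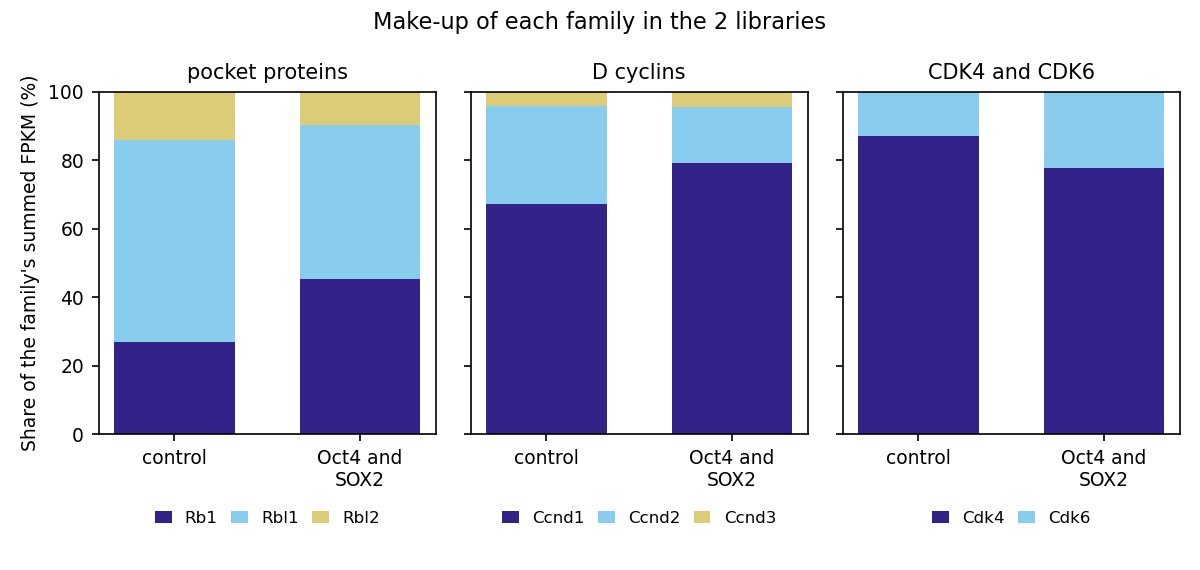
Share (%) of the summed FPKM of the pocket protein genes, the D cyclin genes and the pair Cdk4 and Cdk6 held by each gene, in the control library (left bar) and the Oct4 and SOX2 library (right bar) of each panel; each bar is 1 library. Rb1 goes from 26.8% to 45.3%, Ccnd2 from 28.8% to 16.4% and Cdk6 from 12.8% to 22.3%.

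The kinase ratios also lay on opposite sides of 1, that of Cdk4 close to it. Cdk4 (ENSMUSG00000006728; chromosome 10, 127063534 to 127067920, plus strand, 8 exons) was at 112 FPKM in vector cells and 102 FPKM in Oct4/SOX2 cells, from 11606 and 10545 reads, 1.10-fold lower (1.07 to 1.13). Cdk6 (ENSMUSG00000040274; chromosome 5, 3341485 to 3531008, plus strand, 7 exons) was at 16.5 and 29.2 FPKM, from 7354 and 13011 reads, a ratio of 1.77 (1.72 to 1.82). Cdk6 thus had the second highest ratio of the members, with 2.45% of the measured protein-coding genes above it, whereas 63.1% of them had a log2 ratio farther from 0 than that of Cdk4. Neither passed 2-fold.

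Per length, Cdk4 was the more abundant kinase transcript in both libraries, whereas in reads, not divided by length, Cdk6 held 38.8% of the pair in vector cells and 55.2% in Oct4/SOX2 cells. The level of Cdk4 was 6.80 times that of Cdk6 in vector cells and 3.49 times in Oct4/SOX2 cells, and the share of Cdk6 in their sum was 12.8% and 22.3%. The sum itself was 128 and 131 FPKM. Tspan31 overlaps the 3' end of Cdk4 on the opposite strand, with 641 shared exonic bases and 3168 and 2841 reads, a ratio below 1 as for Cdk4. A Cdk6 pseudogene in the table had 5 and 4 reads.

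The promoters of the kinase genes are shown side by side because the transcript ratios lay on opposite sides of 1, that of Cdk4 close to it. Each is the 250 bases before a RefSeq start on the plus strand of GRCm38.p6, chr10:127063285-127063534 for Cdk4 and chr5:3343643-3343892 for Cdk6, 5′ to 3′. Capitals mark CACGTG, the E-box that MYC and MAX bind, whose letters read the same on both strands.
Cdk4: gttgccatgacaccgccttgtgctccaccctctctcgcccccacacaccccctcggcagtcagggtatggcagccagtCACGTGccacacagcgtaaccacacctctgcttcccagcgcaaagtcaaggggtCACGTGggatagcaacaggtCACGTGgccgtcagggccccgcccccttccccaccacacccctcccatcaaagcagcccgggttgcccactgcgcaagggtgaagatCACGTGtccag
Cdk6: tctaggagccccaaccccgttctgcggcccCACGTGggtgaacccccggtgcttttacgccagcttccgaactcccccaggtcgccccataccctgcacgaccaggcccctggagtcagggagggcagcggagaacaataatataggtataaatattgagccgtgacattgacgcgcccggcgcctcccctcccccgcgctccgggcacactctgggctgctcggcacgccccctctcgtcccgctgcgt
The Cdk4 window holds 4 E-boxes, beginning 172, 118, 98 and 11 bases before the start, and the Cdk6 window holds 1, beginning 220 bases before it. At least 1 E-box is found in 6.02% of the 32851 windows, and 4 or more in 7 of them. Neither window holds the E2F motif. The deposited table places the first base of Cdk6 at 3341485, upstream of the RefSeq start used here, so other starts of Cdk6 are not covered.

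Of the inhibitor members, Cdkn1b alone had reads. Cdkn1b (ENSMUSG00000003031; chromosome 6, 134920401 to 134925513, plus strand, 3 exons) encodes p27, which restrains cyclin E and CDK2. It was at 11.0 FPKM in vector cells and 9.03 FPKM in Oct4/SOX2 cells, from 1603 and 1309 reads, 1.22-fold lower (1.14 to 1.32). Of the measured protein-coding genes 36.8% had a log2 ratio farther from 0. Its more abundant relative Cdkn1a, the p21 gene and a p53 target, was 1.55-fold lower (1.51 to 1.58), at 144 and 93.3 FPKM, and Cdkn1c had 0 reads in both libraries. The CIP/KIP total was accordingly 155 FPKM in vector cells and 102 FPKM in Oct4/SOX2 cells.

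Cdkn2a and Cdkn2b were not detected. Cdkn2a (ENSMUSG00000044303; chromosome 4, 89274471 to 89294653, minus strand), which encodes p16 and, in another reading frame, p19Arf, had 0 reads in both libraries, which allows a level of up to 0.0802 FPKM in vector cells and 0.0803 FPKM in Oct4/SOX2 cells (3 reads). Cdkn2b (ENSMUSG00000073802; chromosome 4, 89306299 to 89311039, minus strand), the p15 gene, also had 0 reads in both, which allows 0.0676 and 0.0677 FPKM. No fold can be given for either, and the comparison of the libraries is silent about them. Mtap, the nearest protein-coding gene on 1 side, had 5013 and 4440 reads, at 48.7 and 43.2 FPKM. Between Mtap and Dmrta1, the nearest on the other side, the table lists 9 entries, of which 5 had 0 reads in both libraries, and together they had 12 reads in vector cells and 7 in Oct4/SOX2 cells. Dmrta1 itself had 11 and 33 reads. RNA levels cannot tell a silent gene from one that is missing from the genome.

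Levels varied among the genes farther out on chromosome 4. Klhl9 was at 13.2 FPKM in vector cells and 11.5 FPKM in Oct4/SOX2 cells, Focad at 3.73 and 3.40 FPKM, and Mllt3 at 5.47 and 7.51 FPKM. Hacd4 was 3.25-fold lower (2.66 to 4.00 by counting), at 1.93 and 0.595 FPKM, which at this low level is a log2 ratio of -0.88 on the scale of FPKM + 1. Ifnb1 had 6 and 4 reads and Elavl2 had 0 in both.

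The INK4 inhibitors that were present, Cdkn2c and Cdkn2d, went the other way from the CIP/KIP genes. Cdkn2c, the p18 gene, was at 11.8 FPKM in vector cells and 17.8 FPKM in Oct4/SOX2 cells, a ratio of 1.51 (1.39 to 1.64). Cdkn2d, the p19 INK4 gene, was at 19.7 and 28.9 FPKM, a ratio of 1.46 (1.35 to 1.59). The INK4 total was 31.5 and 46.7 FPKM, all of it from these genes. The inhibitor side of the pathway thus held less p21 and p27 transcript and more p18 and p19 transcript in Oct4/SOX2 cells, within differences that all stayed under 2-fold.

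**Figure D3:**
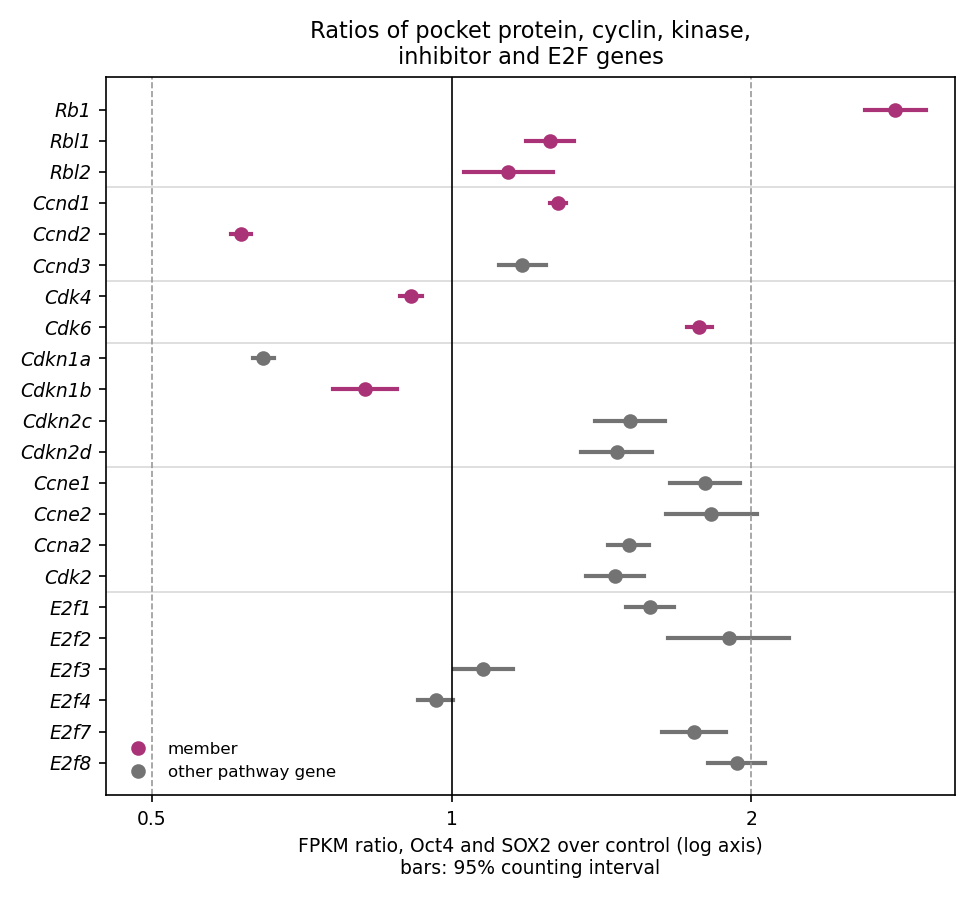
Plain FPKM ratio, Oct4 and SOX2 library over control (log axis), of member genes (purple) and other pathway genes (grey), ordered as pocket proteins, D cyclins, kinases, inhibitors, later cyclins with Cdk2, and E2F genes; bars are 95% counting intervals from 1 library per group and dashed lines mark 2-fold either way. Rb1 at 2.79 is the point beyond 2-fold among those drawn, and Ccnd2 at 0.614 and Cdkn1a at 0.647 lie lowest. E2f5 and E2f6 are not drawn.

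Downstream of the pocket proteins, most genes of the E2F system lay higher in Oct4/SOX2 cells. Of 10 genes for E2F and DP proteins 9 lay above 0 in log2 ratio, the median of the 10 was 0.32 and 0 passed 2-fold. Of those 9, E2f5 at 1.14 (0.996 to 1.31) and E2f6 at 1.07 (0.957 to 1.19) had intervals that include 1. E2f3 lay close to 1 at 1.08 (1.004 to 1.15). The activator gene E2f1 was at 20.7 FPKM in vector cells and 32.8 FPKM in Oct4/SOX2 cells, a ratio of 1.58 (1.50 to 1.67), and the repressor genes E2f7 and E2f8 had ratios of 1.75 (1.63 to 1.89) and 1.93 (1.81 to 2.07). E2f4, the factor that binds p130 and p107 and the most abundant of the list, stood at 62.4 and 60.2 FPKM, a ratio of 0.964 (0.926 to 1.003) whose interval includes 1. Tfdp1, the main dimer partner, was at 54.3 and 67.8 FPKM.

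Of 30 E2F target genes of DNA replication and chromatin assembly 29 lay above 0, with a median log2 ratio of 0.50, where 48.3% of all measured genes lay above 0. None passed 2-fold on the log2 scale of FPKM + 1. This list, like the others here, was chosen with earlier results of these data known, so its counts are a description and not a test. The most abundant were Pcna, the replication clamp gene, with a ratio of 1.30 (1.26 to 1.34), and Rrm2, a ribonucleotide reductase subunit gene, at 47.6 and 76.1 FPKM. Tk1, for thymidine kinase, had the highest log2 ratio of the list, 0.96, at 7.64 and 15.8 FPKM. The replicative helicase genes ranged from Mcm2, with a ratio of 1.04, to Mcm6, at 26.5 and 45.3 FPKM. The exception below 0 was Orc1, an origin recognition gene, with 234 and 214 reads, a ratio of 0.916 (0.758 to 1.11). The E2F motif defined above was found before 10 of the 26 of these genes in the promoter table (38.5%), and before 2.16% of all genes there. Because the genes were listed as E2F targets, this share describes the list and does not test its ratios. Proliferation markers, given here because they moved with these lists, lay above 0 for 12 of 12 with a median of 0.43, Pcna being in both lists and Cdc20 at 89.8 and 103 FPKM among them. Their part in the ratios of the members was not tested.

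Other genes that act between D cyclins and S phase had a median of 0.31, with 9 of 13 measured above 0 and none past 2-fold. Ccne1 and Ccne2, the E cyclin genes, had ratios of 1.79 (1.66 to 1.95) and 1.82 (1.64 to 2.03), and Cdk2, their kinase, 1.46 (1.36 to 1.56). Ccna2, for cyclin A2, was at 22.0 FPKM in vector cells and 33.1 FPKM in Oct4/SOX2 cells. Of the CDK-activating kinase, the cyclin gene Ccnh was lower, at 11.8 and 8.89 FPKM, as was the assembly factor gene Mnat1, at 8.19 and 6.20 FPKM. Its catalytic subunit gene Cdk7 stood at 8.75 and 8.57 FPKM, a ratio of 0.980 (0.897 to 1.07) whose interval includes 1.

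The MuvB core joins Rbl1 or Rbl2 in the repressive DREAM complex and B-MYB or FOXM1 in activating ones. Of 9 genes of these complexes 7 lay above 0, with a median of 0.16 and a range from -0.11 to 0.90. Mybl2, the B-MYB gene, was at 7.94 FPKM in vector cells and 15.7 FPKM in Oct4/SOX2 cells, a ratio of 1.98 (1.85 to 2.13), and Foxm1 was at 43.0 and 69.1 FPKM. Rbbp4, a histone-binding subunit, was at 22.5 and 20.7 FPKM. Chromatin partners of the pocket proteins, a list that also holds Rbl1 and Rbl2, had a median of 0.16 with 14 of 19 above 0. Their log2 ratios ranged from -0.33 to 0.68. The most abundant were Rbbp7, at 109 and 110 FPKM, and Cbx5, the heterochromatin protein 1 alpha gene, at 62.4 and 71.9 FPKM. Genes for phosphatases that act on RB had a median of 0.07 over 9, with Ppp1ca, a protein phosphatase 1 catalytic subunit gene, at 212 and 222 FPKM and Ppp2r1a, the scaffold subunit gene of protein phosphatase 2A, at 87.0 and 102 FPKM.

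The lists of genes that set the stability or synthesis of the members had median log2 ratios from -0.05 to 0.11, but some held genes past 2-fold. The D cyclin turnover list had a median of -0.05, with 6 of 14 measured above 0 and 1 at least 2-fold lower. That gene was Cryab, a small heat shock protein that serves as an adaptor of the FBXO4 ligase for cyclin D1, at 36.2 FPKM in vector cells and 10.8 FPKM in Oct4/SOX2 cells, 3.36-fold lower (3.04 to 3.71). The p27 list had a median of -0.02 over 17 with 8 above 0, and this median reached up to 0.01 among 10 alternatives, so its sign depends on the scaling and the filter. In it Akt1, a kinase gene of growth factor signalling, was at 81.6 and 91.8 FPKM, and Cks1b, for a cofactor of SKP2, at 82.6 and 86.5 FPKM. Skp2, which marks p27 for destruction, was at 4.69 and 4.46 FPKM. Regulators of the INK4 locus had a median of 0.11 with 14 of 19 measured above 0. Past 2-fold were Twist1, which represses the INK4 locus, higher by 2.43-fold (2.31 to 2.56), and Ets2, an activator of p16, lower by 2.28-fold (2.16 to 2.40), at 24.8 and 10.9 FPKM.

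**Figure D4:**
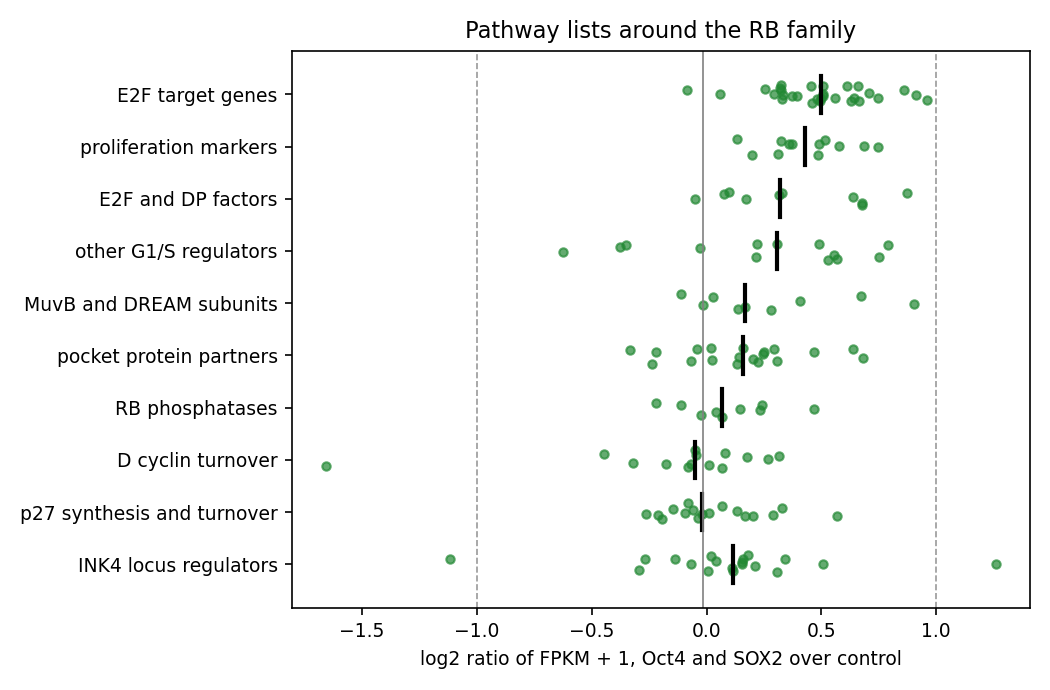
Horizontal axis, log2 of (FPKM + 1) in the Oct4/SOX2 library relative to control, of every measured gene (point) of 10 pathway lists; black bars are list medians, the grey line is the median of all measured genes at -0.01, and dashed lines mark 2-fold. E2F target genes have the highest median, 0.50, while the turnover lists for D cyclins and p27 lie at -0.05 and -0.02.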

How the data were processed

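RNA-seq values were available for 2 libraries, 1 per group. The authors deposited FPKM per gene with gene length and GRCm38 coordinates. CASAVA, HISAT2 and featureCounts 1.5.0-p3 are named per the submitters' processing notes; the formula for FPKM, the annotation used and the strand setting are not stated there. Multiplying FPKM by gene length gave whole reads, within 0.001 of a read, for 100% of values, and these recovered reads were used for counting error. The depths implied by the FPKM were 31917861 (vector cells) and 31861380 (Oct4/SOX2 cells), not the gene-assigned totals. Ratios use the FPKM as deposited. Differences were log2 ratios of FPKM + 1 for genes with at least 1 FPKM in 1 library. Folds are plain FPKM ratios with exact conditional binomial 95% counting intervals; a gene with 0 reads was given a limit of 3 reads. PCR copies are not independent molecules. No test across samples was possible. Exons came from GENCODE M21 on the same build. The steps were tested on simulated counts.

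Members and the 20 gene lists were chosen with earlier results of these data known. Named were all members, list genes at least 2-fold different (up to 3 each way) or else the 2 most abundant, locus neighbours, and the 3 genes nearest to a member past 2-fold. Ccnd3, Cdkn1c, Cdkn2c, Cdkn2d, Ccne1, Ccne2, Cdk2, Cdk7, Ccnh, Mnat1, E2f1, E2f3, E2f5, E2f6, E2f7, E2f8, Tk1, Mcm2, Mcm6, Orc1, Skp2, Mybl2, Lgals4, Epcam, Cdh1, Vim, Col1a1 and Col1a2 were named after their values were seen, as were the overlapping genes. Of 231 list entries 2 had no match in the table, and 1 locus neighbour is not reported here. Alternatives were pseudocounts of 0.1 and 5 FPKM, no filter or one of 5 FPKM, median centring, rescaling without the 50 genes with most reads, plain read totals, centring within 10 classes of length or GC, restriction to protein-coding genes, a 2-fold rule on the counting interval, and shares in reads. Python 3.11.15, numpy 2.4.6, pandas 2.3.3, scipy 1.17.1 and matplotlib 3.10.9 were used.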

Additional observations from a re-analysis of the deposited data

How the results depend on the processing

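Every member with reads kept the sign of its log2 ratio under all alternatives run. Among the settings of scale, filter and pseudocount, Rb1 ranged from 0.95 with a pseudocount of 5 FPKM, where it no longer passed 2-fold and 0 members did, to 1.46 with a pseudocount of 0.1 FPKM. In alternatives chosen after seeing the data it was 1.23 with all Lpar6 reads added and 0.79 with all those of Lpar6 and Rcbtb2 added. The second of these sums did not pass 2-fold, and neither shows how far the overlap alters the ratio of Rb1. The log2 ratio of Ccnd1 was 0.35, and 0.38 to 0.39 with plain read totals, the rescaling or GC centring, which is beyond its counting error. The median of the E2F target genes was 0.38 with a pseudocount of 5 FPKM. Over all genes, 520 were higher and 459 lower with a pseudocount of 0.1 FPKM, 75 and 56 with 5 FPKM, 145 and 121 with a filter of 5 FPKM, and 143 and 110 among protein-coding genes, against 300 and 230. Counted in reads, not divided by length, the share of Ccnd2 was 43.5% in vector cells and 27.2% in Oct4/SOX2 cells, and that of Cdk6 38.8% and 55.2%, because these genes are longer than their partners. No replicate could be left out with 1 library per group. No paired analysis was possible because each group has 1 library and no test was made. For Cdkn2a and Cdkn2b, with 0 reads in both libraries, depth sets only the upper limit of the level.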
